A study of Mus musculus with 9 samples.

Results

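Mitosis genes, the 54 listed genes whose products condense chromosomes, build the spindle, check its attachments, separate the sister chromatids and divide the cell, were followed through muscle differentiation. They were matched by Ensembl identifier to mouse symbols in all 9 count files, each of which listed 47728 genes, and kept where the mean over the 9 libraries was at least 5 CPM (reads of a gene relative to the library total). All 54 were found and all 54 passed that minimum, among 10897 genes of the whole series that did so. Messenger RNA came from C2C12, an established line of mouse myoblasts, which stop dividing and form myotubes when growth serum is taken away. The 3 genotypes were a control (titled Neg), an Fkbp5 knockdown and an Fkbp4 knockdown, each sampled once at days 0, 3 and 5 of differentiation. Day 0 is the day on which proliferating cells in serum medium were switched to insulin-transferrin-selenium medium. The labels also name a medium with HS for later changes, and give neither the knockdown method nor the content of the control. With 1 library per genotype and day, the libraries of the other factor stand in for replicates. Each p therefore rests on how far these 9 libraries depart from the fitted model, and not on a spread between replicate cultures.

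Mitosis is driven by Cdk1 bound to a B-type cyclin. The spindle checkpoint holds the anaphase-promoting complex until every chromosome is attached, and that complex, with its activator Cdc20, then destroys securin and cyclin B. Many of these genes are transcribed only late in the cell cycle, through promoter elements called the cell cycle homology region (CHR) and the CCAAT box, with Foxm1 and B-Myb (Mybl2) as activators. Myoblasts silence them when they stop dividing for good. Fkbp5 and Fkbp4 are related peptidyl-prolyl isomerases that assist the chaperone Hsp90, and the series title ties Fkbp5 to myoblast differentiation and to Cdk4, a kinase of the G1 phase.

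RefSeq promoter windows, from 250 bases before to 50 bases after the start of a gene on GRCm38.p6, were held for 44 of the 54 genes (47 windows). They were searched on both strands for the CHR (TTTGAA or TTCGAA), the CCAAT box (CCAAT) and an E2F site (TTCCCGC or TTGGCGC). A CHR lay in 74.5% of the windows, against 19.2% of 32851 windows of all genes and 13.2% of 53 windows of DNA replication genes. For the CCAAT box the shares were 70.2%, 37.4% and 54.7%. The E2F letters went the other way between both cell cycle lists, in 23.4% of mitosis windows and 49.1% of replication windows, with 6.81% over all genes. CHR and CCAAT box stood together in 66.0% of mitosis windows, 9.43% of replication windows and 7.52% of all windows. A match is a description of letters, and an absent match says only that the letters are not in this window.

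**Figure D1:**
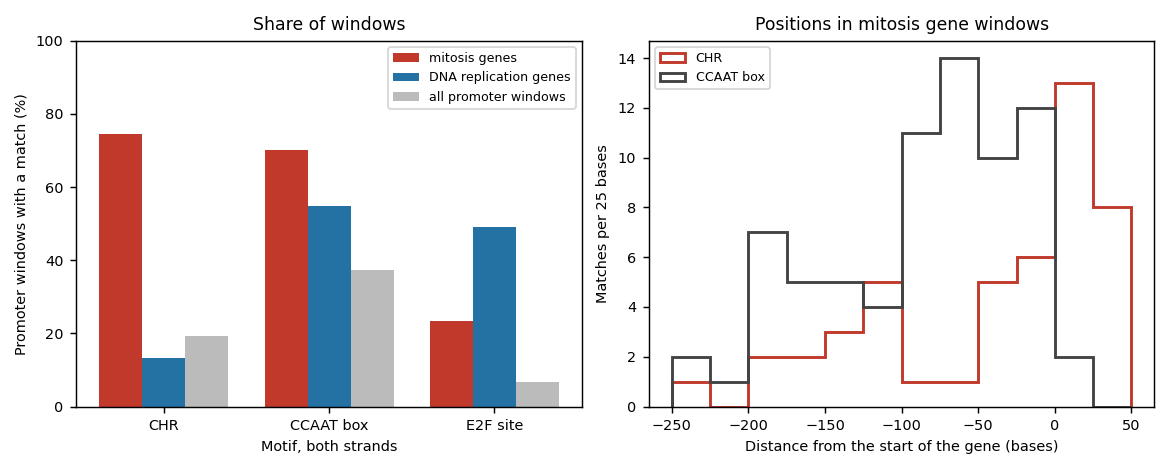
Left, the percentage of promoter windows with at least 1 match to each motif, on either strand, for mitosis genes (red), DNA replication genes (blue) and all windows (grey); right, the number of CHR and CCAAT box matches in mitosis windows in bins of equal width by distance from the start of the gene. The CHR bar is at 74.5% for mitosis genes and 13.2% for replication genes. CCAAT boxes are most frequent over several bins upstream of the start, of which the nearest is not the tallest.

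The 8 windows below belong to a choice of the genes named in the results. They are the kinase and cyclin of mitotic entry, the checkpoint kinase Bub1, Cdc20 and Ube2c of anaphase, Top2a, the cytokinesis motor Kif23, and Mybl2. Mybl2 had the largest fall with time and holds no match to the letters searched. Neither do the windows of Pttg1, Birc5, Mad2l1, Melk, Nuf2 and Nusap1, which are not printed. The Mybl2 window does hold ttggcggga, close to the searched E2F letters TTGGCGC, and other forms of the E2F site were not searched. Capitals mark the motif letters, read on the strand of the gene, so that a match on the opposite strand appears as its reverse complement (TTCAAA or TTCGAA for the CHR, ATTGG for the CCAAT box, GCGGGAA or GCGCCAA for the E2F site). Neighbouring or overlapping matches run together in capitals, as where the E2F letters and a CCAAT box of Ccnb1 share bases.
Cdk1 (chr10:69352863-69353162, minus strand): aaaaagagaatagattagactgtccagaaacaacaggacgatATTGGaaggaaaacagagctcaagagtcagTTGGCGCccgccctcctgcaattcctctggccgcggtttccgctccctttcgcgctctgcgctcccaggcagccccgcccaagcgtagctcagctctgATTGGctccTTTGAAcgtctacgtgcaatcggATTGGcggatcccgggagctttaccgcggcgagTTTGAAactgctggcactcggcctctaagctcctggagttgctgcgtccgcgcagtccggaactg
Ccnb1 (chr13:100786437-100786736, minus strand): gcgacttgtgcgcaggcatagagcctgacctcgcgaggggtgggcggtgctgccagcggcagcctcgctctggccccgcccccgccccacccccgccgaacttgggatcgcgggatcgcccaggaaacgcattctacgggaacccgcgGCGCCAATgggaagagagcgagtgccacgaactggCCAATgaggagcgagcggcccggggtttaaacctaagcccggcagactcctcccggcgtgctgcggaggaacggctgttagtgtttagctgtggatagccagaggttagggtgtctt
Bub1 (chr2:127831810-127832109, minus strand): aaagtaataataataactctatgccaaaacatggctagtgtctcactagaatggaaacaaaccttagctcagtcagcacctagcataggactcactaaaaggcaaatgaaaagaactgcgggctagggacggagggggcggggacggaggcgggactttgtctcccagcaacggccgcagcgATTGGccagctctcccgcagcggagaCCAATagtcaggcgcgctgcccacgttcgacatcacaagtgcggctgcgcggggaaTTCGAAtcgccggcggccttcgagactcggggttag
Cdc20 (chr4:118437294-118437593, minus strand): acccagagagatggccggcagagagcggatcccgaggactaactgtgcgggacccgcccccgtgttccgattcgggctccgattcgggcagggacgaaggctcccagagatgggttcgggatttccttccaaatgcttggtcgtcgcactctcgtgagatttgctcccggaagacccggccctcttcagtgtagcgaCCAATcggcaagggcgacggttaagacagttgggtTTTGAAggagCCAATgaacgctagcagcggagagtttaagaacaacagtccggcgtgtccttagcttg
Ube2c (chr2:164769679-164769978, plus strand): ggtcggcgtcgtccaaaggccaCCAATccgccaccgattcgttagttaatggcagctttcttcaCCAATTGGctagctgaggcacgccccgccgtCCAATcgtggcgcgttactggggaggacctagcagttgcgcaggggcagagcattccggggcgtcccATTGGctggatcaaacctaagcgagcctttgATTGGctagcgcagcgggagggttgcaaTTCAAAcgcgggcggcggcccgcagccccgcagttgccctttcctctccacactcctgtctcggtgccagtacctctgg
Top2a (chr11:99024140-99024439, minus strand): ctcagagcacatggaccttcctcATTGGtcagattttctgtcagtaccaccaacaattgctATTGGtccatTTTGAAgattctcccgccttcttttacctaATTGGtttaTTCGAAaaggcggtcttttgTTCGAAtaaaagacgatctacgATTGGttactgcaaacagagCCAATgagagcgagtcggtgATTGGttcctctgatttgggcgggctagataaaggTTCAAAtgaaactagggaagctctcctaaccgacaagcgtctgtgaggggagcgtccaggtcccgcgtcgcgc
Kif23 (chr9:61946750-61947049, minus strand): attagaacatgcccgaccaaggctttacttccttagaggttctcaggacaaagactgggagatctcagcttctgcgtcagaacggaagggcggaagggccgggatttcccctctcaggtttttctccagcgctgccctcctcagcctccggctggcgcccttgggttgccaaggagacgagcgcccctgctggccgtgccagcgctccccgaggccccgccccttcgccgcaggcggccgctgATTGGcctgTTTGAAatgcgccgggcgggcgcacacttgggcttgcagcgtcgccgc
Mybl2 (chr2:163054385-163054684, plus strand): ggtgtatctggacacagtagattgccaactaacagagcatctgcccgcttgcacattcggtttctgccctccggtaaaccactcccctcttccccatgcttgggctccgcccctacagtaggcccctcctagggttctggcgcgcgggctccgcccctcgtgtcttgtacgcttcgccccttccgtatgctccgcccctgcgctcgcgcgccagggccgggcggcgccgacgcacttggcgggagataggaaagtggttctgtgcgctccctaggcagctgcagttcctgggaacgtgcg
The Top2a window held 4 CHR matches and 6 CCAAT boxes, and the Cdk1 window 2 and 3. Ube2c and Cdc20 each had 1 CHR, with 6 and 2 CCAAT boxes, whereas Ccnb1 had 2 CCAAT boxes and no CHR by these letters.

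The libraries held 3932372 to 5568486 counts, so that 3 counts, the upper limit for a gene with none, were 0.529 to 0.786 normalised CPM. Each knockdown lowered its own target, Fkbp5 3.29-fold (adjusted p = 0.00842) and Fkbp4 4.86-fold (adjusted p = 1.97e-05, edgeR quasi-likelihood test with Benjamini-Hochberg adjustment). Fkbp5 rested on few reads, with 17, 14 and 21 at days 0, 3 and 5 in its knockdown and 91, 31 and 61 in the control. At day 3 it stood at 3.17 normalised CPM in its knockdown, against 7.32 in the control. The 14 muscle genes checked were all expressed, and summed to 1299 to 1457 normalised CPM at day 0 and to 10813 to 25845 at days 3 and 5. Immune and endothelial markers summed to at most 4.62, with Adgre1 and Cdh5 at 0. Of 6 bone and cartilage markers Ibsp and Acan were at 0, and the list summed to 55.001 to 82.7. Of 6 adipocyte markers Adipoq, Plin1 and Cidec were at 0, and the list, of which Lpl made up most, summed to 72.4 to 128 in the control, 64.4 to 225 in the Fkbp5 knockdown and 32.6 to 62.1 in the Fkbp4 knockdown. Mitochondrially encoded genes took 1.78 to 5.01% of the counts in 8 libraries and 10.1% in the Fkbp5 knockdown at day 5.

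All 3 genotypes began differentiation with a high level of mitosis mRNA and lost most of it by day 3, but the next 2 days differed. The summed normalised CPM of the 54 genes at days 0, 3 and 5 was 7054, 2224 and 1498 in the control. With Fkbp5 knocked down it was 6859, 3022 and 1271, and with Fkbp4 knocked down 7484, 1921 and 2068. At day 3 the Fkbp5 knockdown library was therefore the highest and the Fkbp4 knockdown library the lowest, and at day 5 this order was inverted. The 54 genes took 0.715% of all counts in the control at day 0 and 0.120% in the Fkbp5 knockdown at day 5. In bulk RNA, fewer dividing cells and less mitosis mRNA per cell cannot be told apart.

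**Figure D2:**
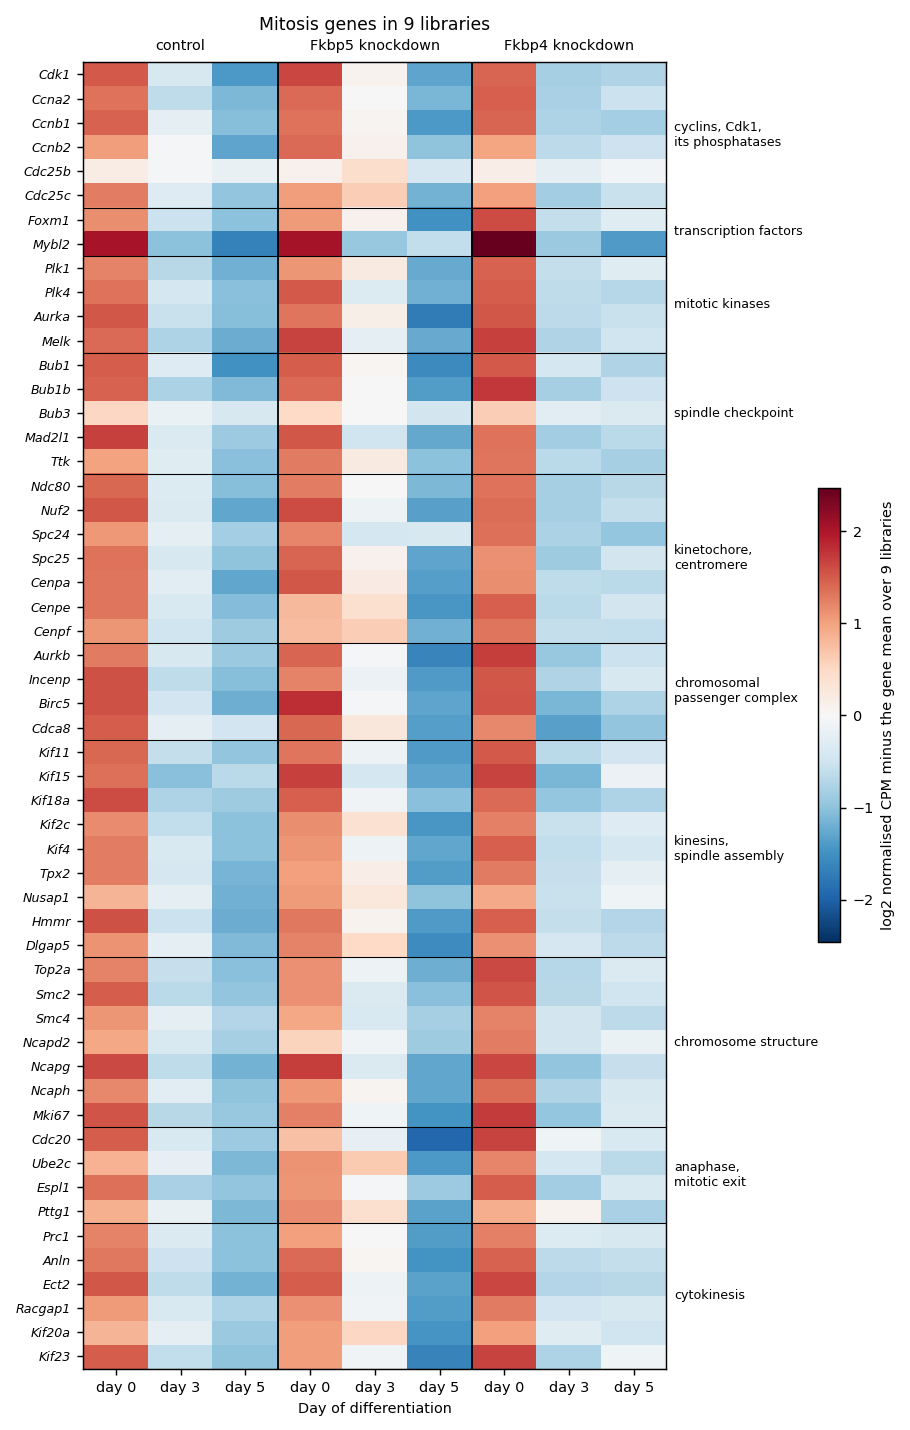
Each row is 1 of the 54 mitosis genes, grouped by role, and each column 1 library; colour gives log2 normalised CPM minus the mean of that gene over the 9 libraries. Day 0 columns are red in each genotype except for a few weakly coloured genes such as Cdc25b and Bub3, and the day 3 column is the least blue in the Fkbp5 knockdown.

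Across genotypes, 53 of the 54 genes fell from day 0 to day 3, while 25.8% of the 12844 genes tested were called lower (edgeR, additive model of genotype and day, adjusted p under 0.05). Their median log2 fold change was -1.70, or 3.25-fold, against 0.00 over all genes tested. From day 0 to day 5 again 53 genes fell, with a median of -2.20 (4.61-fold), against 28.6% of all genes. Between days 3 and 5, with the 3 genotypes fitted as one step, 5 of the 54 genes were called lower, against 2.39% of all genes. These were Pttg1, Bub1, Ube2c, Dlgap5 and Ccnb1; 53 of the 54 values were below 0 and the median was -0.54, with -0.23 without the Fkbp5 knockdown library of day 3 and -0.85 without the Fkbp4 knockdown library of day 3. The count was 1 without any 1 of the Fkbp5 knockdown or control libraries of days 3 and 5 (0.517 to 2.54% of all genes) and 2 without the control of day 0 (1.71%). It was 14 or 16 without the Fkbp4 knockdown library of day 3 or 5 (0.98 and 1.04%). DESeq2 called 11 (2.06% of all genes), limma voom 8 (2.65%), and edgeR without a filter on low counts 40 (3.07%). Pttg1 was called under all 14 alternatives.

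Cdk1 and the B-type cyclins, which start mitosis, fell with time in all 3 genotypes between day 0 and day 3. Cdk1, the kinase, stood at 422, 112 and 55.7 normalised CPM at days 0, 3 and 5 in the control, at 464, 157 and 59.6 in the Fkbp5 knockdown and at 398, 83.9 and 87.9 in the Fkbp4 knockdown. Its day 5 over day 3 ratio was 0.498 (0.423 to 0.584) in the control, 0.379 (0.328 to 0.436) in the Fkbp5 knockdown and 1.05 (0.916 to 1.20) in the Fkbp4 knockdown; ranges after a ratio are exact 95% intervals for counting error only. In the fit it fell by 2.65 on the log2 scale from day 0 to day 5 (SE 0.22, adjusted p = 3.12e-06). Ccnb1, cyclin B1, was at 250.1, 77.9 and 43.6 in control cells, 229.7, 95.8 and 34.1 in the Fkbp5 knockdown, then 245, 53.6 and 50.8 in that of Fkbp4. Its day 5 over day 3 ratio had an interval that held 1 in the Fkbp4 knockdown (0.947, 0.797 to 1.13) and one below 1 in the Fkbp5 knockdown (0.356, 0.294 to 0.428). Ccnb2, cyclin B2, was the member with the lowest control ratio, 0.413 (0.316 to 0.536), and read 100.2, 48.4 and 20.01 in the control, against 129, 53.2 and 24.7 with Fkbp5 and 96.1, 31.6 and 34.4 with Fkbp4 knocked down. It was one of 4 genes without the order shared by the other 50, since its ratio was a little higher in the Fkbp5 knockdown (0.464, 0.367 to 0.583) than in the control.

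Cdc25b, a phosphatase that removes inhibitory phosphates from Cdk1, was the exception to the fall. Its levels were 118, 102 and 91.6 in control cells, 111, 139.5 and 77.97 in the Fkbp5 knockdown, then 117, 89.4 and 99.4 in that of Fkbp4. Neither day 3 (log2 fold change -0.07, SE 0.16, adjusted p = 0.727) nor day 5 (-0.36, SE 0.16, adjusted p = 0.0733) was called against day 0. In the Fkbp5 knockdown its day 3 library was the highest of the 9, and day 5 the lowest.

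Of the transcription factors, Foxm1, which drives G2 and M phase genes, was at 117, 36.4 and 26.04 normalised CPM in the control, against 109, 56.6 and 18.8 with Fkbp5 and 160.3, 34.9 and 43.00 with Fkbp4 knocked down. It followed the common course, with ratios of 0.716 (0.555 to 0.922), 0.332 (0.256 to 0.425) and 1.23 (1.01 to 1.51) from day 3 to day 5 in the control, the Fkbp5 knockdown and the Fkbp4 knockdown. Mybl2 (B-Myb) had the largest fall of all members from day 0 to day 5 (log2 fold change -3.35, SE 0.22, adjusted p = 5.63e-07). It was read at 40.7, 4.96 and 3.13 in the control, against 41.6, 5.21 and 6.55 with Fkbp5 and 55.1, 5.29 and 3.78 with Fkbp4 knocked down. After day 0 it rested on 13 to 30 reads per library, and its ratios of 0.632 (0.291 to 1.32), 1.26 (0.706 to 2.27) and 0.714 (0.375 to 1.32), in the same order, could not be separated by their intervals.

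The mitotic kinase Plk1, which acts from centrosome maturation to cytokinesis, stood at 62.96, 16.8 and 11.8 in control cells, 57.1, 31.3 and 11.4 in the Fkbp5 knockdown, then 73.3, 17.8 and 21.8 in that of Fkbp4. Its day 3 level was 1.87 (1.39 to 2.52) times the control in the Fkbp5 knockdown, while the Fkbp4 knockdown library did not differ from the control beyond counting error (1.06, 0.777 to 1.46). Among the spindle checkpoint genes, Bub1, a kinase that recruits the checkpoint to kinetochores, read 143, 40.8 and 18.1 in the control, against 143, 52.3 and 17.04 with Fkbp5 and 143, 37.4 and 30.4 with Fkbp4 knocked down. Bub1 was called lower at day 5 than at day 3 over the 3 genotypes (log2 fold change -0.99, SE 0.20, adjusted p = 0.0190), and the Fkbp4 knockdown showed the smallest of the 3 steps (0.814, 0.654 to 1.01). Bub3, its partner, which also works outside mitosis, kept a higher share of its day 0 level: 143, 90.4 and 77.1 in control cells, 141, 102 and 73.4 in the Fkbp5 knockdown, then 154, 84.8 and 79.3 in that of Fkbp4. The Bub3 change from day 0 to day 5, -0.93 (SE 0.10, adjusted p = 1.94e-05), was the smallest among the called members.

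At the kinetochore, Cenpa, the histone H3 variant that marks centromeres, was at 229, 76.2 and 37.8 in the control, against 266, 106 and 36.04 with Fkbp5 and 206, 60.1 and 58.5 with Fkbp4 knocked down. The day 3 to day 5 ratio was 0.496 (0.408 to 0.603) in the control, 0.339 (0.282 to 0.406) in the Fkbp5 knockdown and 0.973 (0.828 to 1.14) in the Fkbp4 knockdown, so only the last interval held 1. Spc24, of the Ndc80 complex that binds microtubules, did not share this: it read 43.8, 17.7 and 11.6 in control cells, 48.2, 15.4 and 15.7 in the Fkbp5 knockdown, then 53.2, 12.2 and 10.7 in that of Fkbp4. Its Fkbp5 knockdown libraries of days 3 and 5 were level (1.02, 0.723 to 1.44), and at day 3 it had the lowest Fkbp5 knockdown over control ratio of all members, 0.870 (0.617 to 1.22). The highest was that of Cenpf, a large kinetochore protein, at 2.13 (1.70 to 2.69).

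In the chromosomal passenger complex, which corrects wrong attachments, the kinase Aurkb stood at 58.3, 18.4 and 12.8 in the control, against 65.2, 23.6 and 7.86 with Fkbp5 and 78.5, 12.7 and 16.8 with Fkbp4 knocked down. Birc5 (survivin), which anchors the complex, was at 178, 42.7 and 25.8 in control cells, 210.3, 57.3 and 24.2 in the Fkbp5 knockdown, then 174, 27.3 and 35.03 in that of Fkbp4. Both were above their day 3 level at day 5 in the Fkbp4 knockdown library alone, with an interval above 1 for Birc5 (1.28, 1.02 to 1.61) and one that held 1 for Aurkb (1.32, 0.949 to 1.84). Cdca8 (borealin) was the member lowest in the Fkbp4 knockdown relative to the control at day 3 (0.464, 0.324 to 0.658) and also at day 5 (0.713, 0.497 to 1.02).

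Of the kinesins, Kif15, which keeps the spindle bipolar, read 34.3, 6.61 and 8.44 in the control, against 42.95, 9.97 and 5.46 with Fkbp5 and 42.8, 6.17 and 12.2 with Fkbp4 knocked down. It had the highest day 5 over day 3 ratio of the control (1.28, 0.755 to 2.18) and likewise of the Fkbp4 knockdown (1.97, 1.27 to 3.09), on few reads. Kif18a, which damps chromosome movements at metaphase, was at 50.2, 9.68 and 8.92 in control cells, 45.6, 15.4 and 8.08 in the Fkbp5 knockdown, then 43.4, 8.46 and 9.65 in that of Fkbp4, with a day 5 over day 3 ratio of 0.922 (0.575 to 1.47) in the control. Dlgap5, a spindle assembly factor also called HURP, was at 66.9, 26.4 and 14.5 in the control, against 71.8, 43.3 and 10.5 with Fkbp5 and 67.1, 23.1 and 19.7 with Fkbp4 knocked down. It had one of the 3 lowest ratios of the Fkbp5 knockdown, 0.242 (0.173 to 0.334), where the Fkbp4 knockdown had 0.854 (0.648 to 1.12).

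Among genes of chromosome structure, Top2a, which untangles sister chromatids, was at 361, 105 and 75.9 in control cells, 339, 142 and 66.8 in the Fkbp5 knockdown, then 476, 94.5 and 120.4 in that of Fkbp4. Mki67 (Ki-67), a coat of mitotic chromosomes and the common marker of proliferation, was at 165, 34.9 and 29.4 in the control, against 132, 51.9 and 20.3 with Fkbp5 and 185, 28.9 and 43.6 with Fkbp4 knocked down. In the Fkbp4 knockdown the day 5 library exceeded that of day 3 for both, 1.27 (1.13 to 1.44) times for Top2a and 1.51 (1.22 to 1.86) for Mki67, while in the Fkbp5 knockdown the ratios were 0.471 (0.410 to 0.541) and 0.392 (0.304 to 0.5004). Smc4, a subunit of condensin, was at 246, 97.96 and 70.9 in control cells, 227, 89.7 and 65.96 in the Fkbp5 knockdown, then 271, 84.8 and 74.04 in that of Fkbp4, and its Fkbp5 knockdown over control ratio at day 3 had an interval that held 1 (0.916, 0.796 to 1.05). Ncapd2, another, was at 114, 45.3 and 33.3 in the control, against 85.4, 54.8 and 31.7 with Fkbp5 and 141, 42.5 and 52.02 with Fkbp4 knocked down, with a smaller change from day 0 to day 5 (-1.54, SE 0.19) than all members but Bub3 and Cdc25b.

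At anaphase, Cdc20, the activator of the anaphase-promoting complex, was at 139, 37.8 and 26.5 in control cells, 81.2, 42.6 and 12.9 in the Fkbp5 knockdown, then 155, 45.5 and 37.96 in that of Fkbp4. The Fkbp5 knockdown library was the lowest of the 3 genotypes at days 0 and 5, at 0.585 (0.509 to 0.672) and 0.486 (0.348 to 0.673) times the control, but not at day 3. Cdc20 was the one member called in a comparison of genotypes, lower in the Fkbp5 than in the Fkbp4 knockdown (log2 fold change -0.79, SE 0.21, adjusted p = 0.0360), where 6.02% of all genes were called lower. This call was lost on leaving out any 1 of 6 libraries: the Fkbp4 knockdown at day 0 or 5, the Fkbp5 knockdown at day 0 or 5, or the control at day 0 or 5 (log2 fold change -0.82 to -0.58 in these fits).

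Ube2c, the ubiquitin-conjugating enzyme of the same complex, was at 106, 50.99 and 27.2 in the control, against 125, 91.3 and 21.8 with Fkbp5 and 134, 43.02 and 36.9 with Fkbp4 knocked down. It had the lowest day 5 over day 3 ratio of all members in the Fkbp5 knockdown, 0.239 (0.190 to 0.298), from a day 3 library 1.79 (1.51 to 2.12) times the control. Pttg1 (securin), whose destruction frees separase, was at 57.5, 27.4 and 14.5 in control cells, 70.2, 41.2 and 12.4 in the Fkbp5 knockdown, then 57.7, 32.97 and 17.8 in that of Fkbp4. All 3 genotypes were lower at day 5 than at day 3, and Pttg1 was the member with the largest fitted step between them (-1.17, SE 0.17, adjusted p = 0.00361); no other member was below 1 by its interval in the Fkbp4 knockdown (0.541, 0.413 to 0.702).

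For cytokinesis, Kif20a, a motor of the central spindle, was at 155, 74.6 and 45.8 in the control, against 178, 123 and 31.7 with Fkbp5 and 176, 70.9 and 61.9 with Fkbp4 knocked down. Kif23, the motor of centralspindlin, was at 75.5, 17.7 and 13.5 in control cells, 54.7, 25.1 and 8.52 in the Fkbp5 knockdown, then 84.7, 15.9 and 24.96 in that of Fkbp4. Kif23 showed the widest gap between both knockdowns from day 3 to day 5, 0.339 (0.229 to 0.492) in the Fkbp5 and 1.57 (1.19 to 2.09) in the Fkbp4 knockdown (fitted difference of the steps -2.26, SE 0.35, adjusted p = 0.134).

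**Figure D3:**
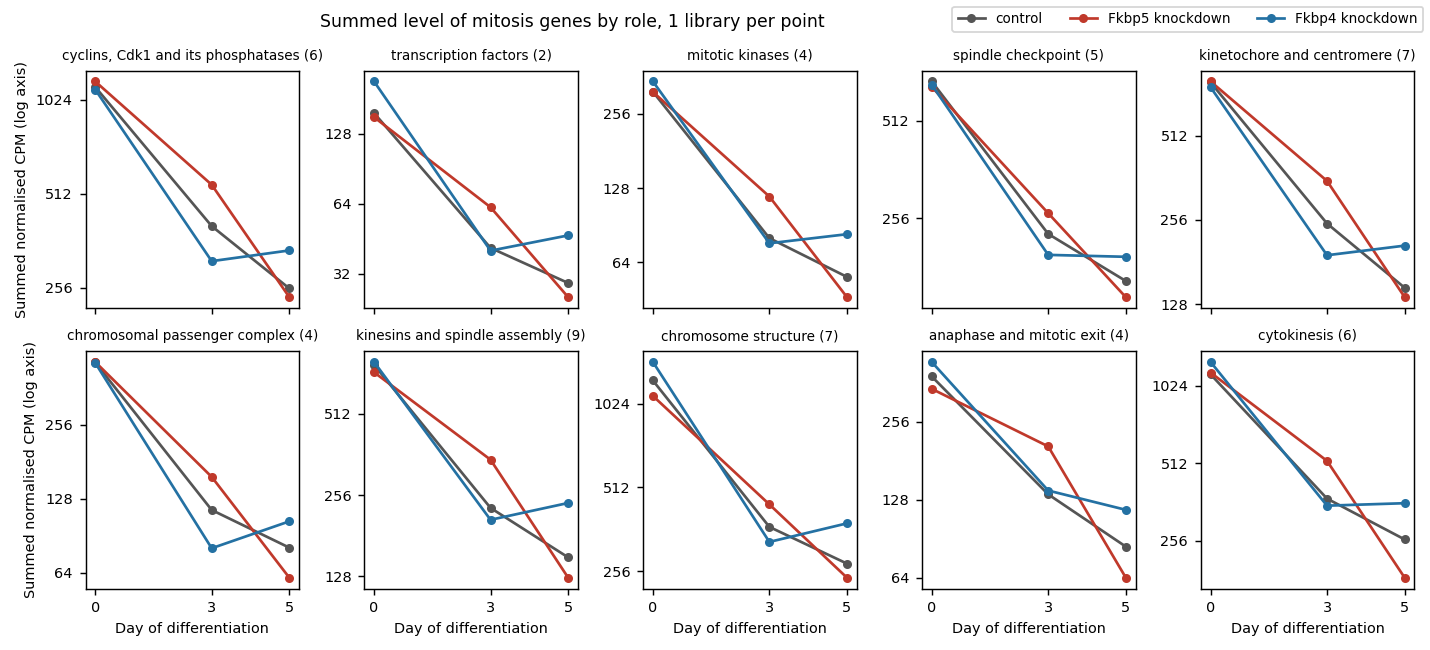
Summed normalised CPM (log axis, its range differing between panels) of the mitosis genes of each role against the day of differentiation, with the number of genes in parentheses and 1 library per point. In each of the 10 panels the Fkbp5 knockdown (red) is highest at day 3 and lowest at day 5, and the Fkbp4 knockdown (blue) is highest at day 5.

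Set side by side, the day 3 to day 5 step ran in the same order of genotypes in most members. In the control 53 of 54 genes were lower at day 5 than at day 3, with a median ratio of 0.691, and 25 were at least 1.5-fold lower, against 7.07% of the 10897 genes. The Fkbp5 knockdown had 52 lower, a median of 0.401 and 50 at least 1.5-fold lower (6.71% of all genes). In the Fkbp4 knockdown 37 of 54 were higher at day 5, the median was 1.14, and 3 were at least 1.5-fold higher (6.93% of all genes) and 1 lower (4.52%). There the interval was above 1 for 13 members and below 1 for 1, and held 1 for the rest, which were level within counting error. Of the 10897 genes, 5524 were lower at day 5 in the control and 5409 in the Fkbp5 knockdown, and 5353 were higher in the Fkbp4 knockdown. Over all genes the median ratios were 0.995, 1.00 and 0.995. The ratio ran, from low to high, in the order Fkbp5 knockdown, control, Fkbp4 knockdown for 50 of the 54 genes, an order found in 16.6% of all genes. The interval of the Fkbp5 knockdown ratio was wholly below that of the Fkbp4 knockdown for 47 members (7.07% of all genes) and below that of the control for 26 (7.27%). That of the Fkbp4 knockdown was wholly above the control for 25 (4.34%). All 54 genes were read from the same libraries, 1 per genotype and day, so these counts are not of independent observations. Of the summed level, day 5 was 0.674 times day 3 in the control (95% interval 0.652 to 0.696), 0.421 times in the Fkbp5 knockdown (0.408 to 0.434) and 1.08 times in the Fkbp4 knockdown (1.05 to 1.11).

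**Figure D4:**
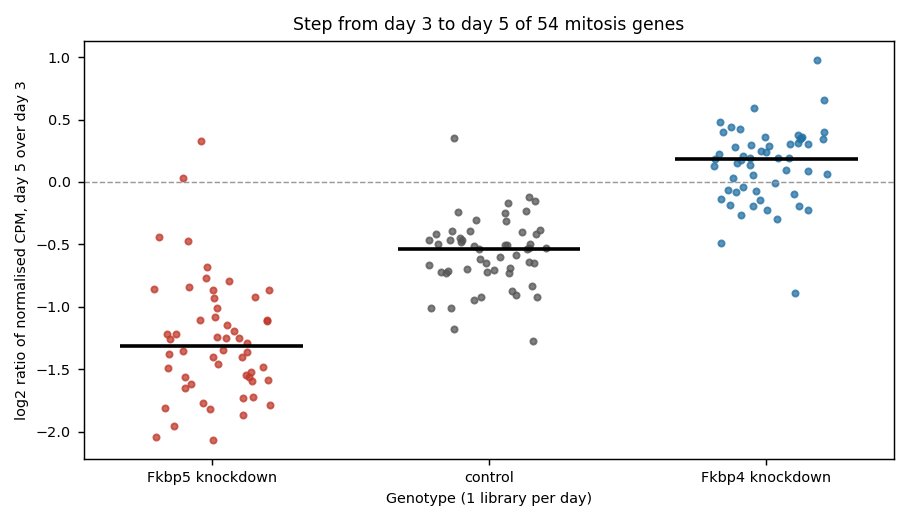
Each point is 1 of the 54 mitosis genes, at its log2 ratio of normalised CPM at day 5 over day 3 within a genotype (1 library per day), and black lines are medians; horizontal scatter within a genotype has no meaning. Most points are below 0 in the Fkbp5 knockdown and the control, and 37 of 54 are above 0 in the Fkbp4 knockdown.

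Fitted over the 9 libraries as a genotype-specific step, which leaves 2 residual degrees of freedom, these differences called no member after adjustment. For the Fkbp5 knockdown against the control, edgeR called 0 of 54 (0% of all genes), with 29 lower at an unadjusted p under 0.05 against 2.7% of all genes, and a median difference of -0.75. For the Fkbp4 knockdown against the control it called 0 (0.0234% of all genes), with 23 higher at an unadjusted p under 0.05 against 1.95%, and a median of 0.70. Between the Fkbp5 and the Fkbp4 knockdown it called 0 (0.00779% of all genes), with 50 lower at an unadjusted p under 0.05 against 3.12%, a median of -1.45 and a lowest adjusted p of 0.134. DESeq2 called 0, 0 and 2 members in these comparisons, the last against 0.0311% of all genes, and limma voom 0, 0 and 0. Without the Fkbp5 knockdown library of day 0, which leaves 1 residual degree of freedom, edgeR called 25 members lower in the Fkbp5 than in the Fkbp4 knockdown (0.509% of all genes) and 1 lower than in the control (0.141%). Without a filter on low counts it called 32 lower between both knockdowns (0.322%). The step was singled out with its outcome known, and each pair of these comparisons shares the libraries of 1 genotype. The members share all libraries, so the counts of members are not of independent tests.

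Against the control of the same day, both knockdowns were on opposite sides at days 3 and 5. At day 0 the median ratio of the 54 genes was 0.952 in the Fkbp5 knockdown, with Cdc20 as the 1 gene at least 1.5-fold lower (5.58% of all genes). At day 3 it was 1.41, with 51 genes above the control and 18 at least 1.5-fold higher (6.2% of all genes), and at day 5 it was 0.856, with 47 below the control and 7 at least 1.5-fold lower (5.99% of all genes). The Fkbp4 knockdown had medians of 1.08 at day 0, with 0 genes 1.5-fold higher (3.95% of all genes), and 0.887 at day 3, with 47 genes below the control and 3 at least 1.5-fold lower (6.15% of all genes). At day 5 its median was 1.42, with 52 above the control and 20 at least 1.5-fold higher (4.57% of all genes), the highest being Nusap1, which bundles spindle microtubules, at 2.09 (1.56 to 2.82). At day 3, 49 of 54 genes were highest in the Fkbp5 knockdown (34.8% of all genes) and 47 lowest in the Fkbp4 knockdown (34.3%). At day 5, 51 were highest in the Fkbp4 knockdown (34.8%) and 47 lowest in the Fkbp5 knockdown (37.9%). Of the 10897 genes, 5390 were above the control at day 3 and 5440 below it at day 5 in the Fkbp5 knockdown. In the Fkbp4 knockdown 5460 were below it at day 3 and 5358 above it at day 5. Both comparisons rest on the same control libraries, and all members are read from the same libraries, so their counts are not of independent observations.

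**Figure D5:**
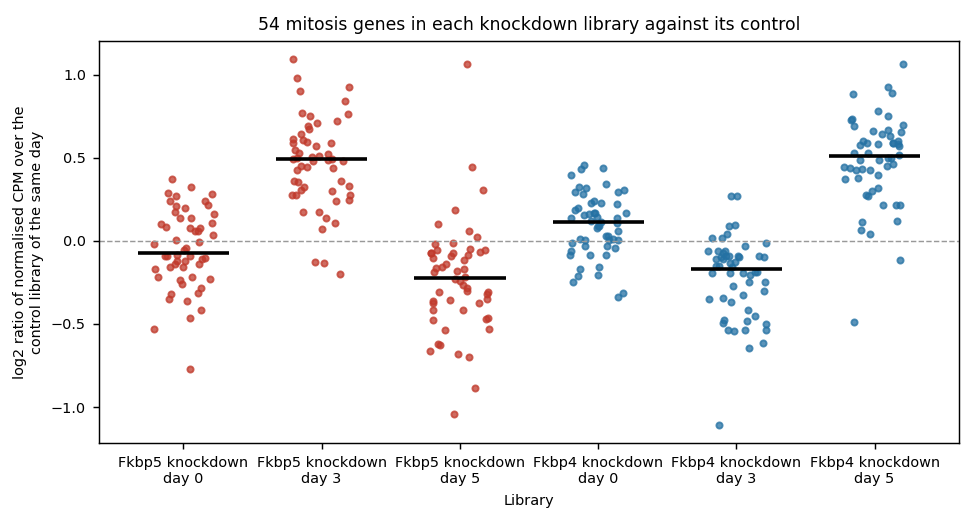
Log2 ratio of normalised CPM in each knockdown library over the control library of the same day for the 54 mitosis genes, 1 point per gene, with the median as a black line; horizontal scatter within a library has no meaning. The medians of both knockdowns lie on opposite sides of 0 at day 3 and again at day 5, with the sides exchanged.

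A difference common to the 3 days was not detected. The edgeR test called 0 of 54 genes for the Fkbp5 knockdown against the control (2.09% of all genes), with only Cdc20 at an unadjusted p under 0.05 (-0.50, SE 0.22, adjusted p = 0.305), and DESeq2 and limma voom also called 0. For the Fkbp4 knockdown it called 0 (1.09% of all genes) with 0 at an unadjusted p under 0.05, and DESeq2 and limma voom called 0. The median log2 fold changes were 0.10 and 0.16. Both rested on single libraries. That of the Fkbp5 knockdown was -0.19 once its day 3 library was left out and 0.26 once that of day 5 was, and that of the Fkbp4 knockdown was 0.37 and -0.05 in the same order.

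The DNA replication genes of S phase, listed for comparison, also fell with differentiation, and their median Fkbp5 knockdown over control ratios were near 1 at days 3 and 5. Of 54 tested, 50 were called lower at day 3 than at day 0 (median -1.73) and 51 at day 5 (median -1.99), against 25.8% and 28.6% of all genes. From day 3 to day 5 the median ratio of the 53 expressed at 5 CPM or more was 0.720 in the control, 0.787 in the Fkbp5 knockdown and 1.02 in the Fkbp4 knockdown. Against the control of the same day the Fkbp5 knockdown stood at 0.960 at day 3 and 0.976 at day 5, next to 1.41 and 0.856 for the mitosis genes, while the Fkbp4 knockdown stood at 0.890 and 1.21. The difference between both lists was not tested. Mcm5, a subunit of the replicative helicase, was at 157, 37.5 and 18.1 in control cells, 128, 32.4 and 17.3 in the Fkbp5 knockdown, then 166, 36.8 and 24.1 in that of Fkbp4.

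Other genes of the spindle, centrosome and division, 41 of 42 at 5 CPM or more, had day 5 over day 3 medians of 0.659 in the control, 0.383 in the Fkbp5 knockdown and 1.14 in the Fkbp4 knockdown. Of the 42 tested, 38 were called lower and 1 higher at day 3 than at day 0, against 25.8% of all genes called lower. The 37 other kinetochore and centromere genes, of which 36 were called lower at day 3, had medians of 0.772, 0.630 and 1.08 in the same order. For the step between both knockdowns, 29 of the 42 and 14 of the 37 were lower at an unadjusted p under 0.05, against 3.12% of all genes. After adjustment 0 were called (edgeR). The list of the anaphase-promoting complex had a smaller median change, -0.19, with 6 of 17 called lower at day 3, against 25.8% of all genes. It holds subunits, which are present through the cell cycle, and also Fzr1, Ube2s and Fbxo5, which are not subunits. Fbxo5, Anapc11 and Ube2s had the smallest p among its called genes. Of the cohesin and condensin II genes 12 of 16 were lower and 1 higher (median -0.57), against 25.8% of all genes called lower. The step from day 3 to day 5 between both knockdowns had medians of -0.01 and -0.10 in these lists, against -1.45 in the mitosis genes.

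Regulators of the exit from the cell cycle were measured in the same libraries. Cdkn1a (p21), an inhibitor of cyclin-dependent kinases, was at 183, 1197 and 1244 in control cells, 185, 914 and 874 in the Fkbp5 knockdown, then 238, 1437 and 1642 in that of Fkbp4. It rose 2.53 on the log2 scale from day 0 to day 3 (SE 0.13, adjusted p = 1.67e-07) and was lower in the Fkbp5 than in the Fkbp4 knockdown (-0.64, SE 0.12, adjusted p = 0.00970). Rb1, the retinoblastoma protein that restrains E2F, was at 32.8, 121 and 113 in control cells, 23.05, 103 and 87.8 in the Fkbp5 knockdown, then 40.96, 134 and 115 in that of Fkbp4. Rb1 too was lower in the Fkbp5 than in the Fkbp4 knockdown (-0.50, SE 0.11, adjusted p = 0.0146), and neither gene was called against the control. Cdk4, which fell with time (-1.40 from day 0 to day 5, SE 0.12, adjusted p = 3.70e-06), was at 658, 377 and 249 in control cells, 737, 315 and 299.9 in the Fkbp5 knockdown, then 683, 341 and 239 in that of Fkbp4, with no call between genotypes. Against the control, 1 of 13 G1 regulators, Cdk6, was called lower in the Fkbp5 knockdown and 0 were called in the Fkbp4 knockdown. Of 20 pocket protein, E2F and related genes, 1 was called lower in the Fkbp5 knockdown (E2f2). In the Fkbp4 knockdown 1 was called higher and 1 lower (E2f2 and Tfdp2). Over all genes 2.09% and 1.09% were called in either direction.

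At day 3, where mitosis genes were highest in the Fkbp5 knockdown, muscle genes were lowest there: their summed level in the Fkbp5 knockdown was 10813 normalised CPM, against 15988 in control cells and 16498.5 with Fkbp4 knocked down. At day 5, when mitosis genes were lowest in the Fkbp5 knockdown, the muscle sum was still lowest there, at 18999.7 against 24581 and 25845. In the Fkbp5 knockdown against the control 4 of 14 muscle genes were called lower, with Ckm, Myh8 and Actc1 among them, and none higher. Of all 12844 genes tested, 180 were called lower and 88 higher. The share of mitochondrially encoded counts was highest in the Fkbp5 knockdown at day 5, where mitosis genes were lowest. With the mitochondrially encoded genes left out before normalisation, the median difference of the step was -0.73 for the Fkbp5 knockdown against the control. Between both knockdowns it was -1.43. Leaving them out changes the scaling and not the library, and any part of that high share in the course of the mitosis genes was not tested. Lpl, a lipase of the adipocyte list that other cells also make, was at 59.4, 77.7 and 119.6 in control cells, 50.8, 154 and 214 in the Fkbp5 knockdown, then 23.6, 43.7 and 57.05 in that of Fkbp4. Against the control it was called lower with Fkbp4 knocked down (-1.08 on the log2 scale, SE 0.19, adjusted p = 0.0319, edgeR) and higher in the Fkbp5 than in the Fkbp4 knockdown (1.67, SE 0.19, adjusted p = 0.000922), and its part in the course of the mitosis genes was not tested.

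The members differed widely in level. Per kilobase of exon, the mean over the 9 libraries was highest for Cdk1 (41.4 CPM per kb), Ccnb2 (39.0) and Cdc20 (34.4), and lowest for Kif15 (1.70), Kif18a (2.25) and Cenpf (2.90). The step was also summarised by promoter letters, with no test. In the Fkbp5 knockdown the day 5 over day 3 ratio had a median of 0.390 in 32 genes with a CHR and 0.427 in 12 without, and in the Fkbp4 knockdown 1.10 and 1.15. At day 3 the Fkbp5 knockdown over control ratio had medians of 1.41 and 1.30. The 10 genes with E2F letters, which can also hold a CHR, had a median step of 0.481 in the Fkbp5 knockdown.

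Some members share sequence with other genes, so their counts are less certain. More than 10% of the 31-base words of the transcripts occurred in another gene for 12 members, the highest shares being 27.8% for Ccnb1, 26.7% for Cdc20 and for Kif20a, 25.3% for Ube2c and 21.1% for Mybl2. The library kit does not mark strand, and exons of Ube2c overlap the muscle gene Tnnc2 over 22.8% of their bases, as those of Kif20a overlap Cdc23 over 29.3%. Reads from such stretches cannot be assigned to 1 gene.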

How the data were processed

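Per the submitters' processing notes, reads were handled with CASAVA 1.8, HISAT2 2.0.2, Subread and featureCounts 1.4.6 on the build mm10; the annotation release, strand setting and treatment of reads with several alignments are not given in the sources used here. The deposited values are unnormalised read counts, 1 per Ensembl gene, from 9 libraries of polyA RNA (TruSeq RNA v2 kit, HiSeq2500), 1 per genotype and day. Identifiers were matched to symbols (47223 of 47728) and to GENCODE M21 exons. Counts were tested in R 4.3.3 with edgeR 4.0.16: filterByExpr (12844 genes), TMM scaling and quasi-likelihood F tests, two-sided, adjusted by Benjamini-Hochberg over all genes tested, with a call at an adjusted p under 0.05. The additive model of genotype and day had 4 residual degrees of freedom, so a genotype difference that changes with the day counts as spread in it. The step model added a genotype-specific change from day 3 to day 5 and had 2. These come from the genotype-specific difference of day 0 from the later days, so its p does not measure a spread at days 3 and 5. Standard errors were derived from each log2 fold change and its F. Normalised CPM are counts over the library total times the TMM factor. Ratios of 2 libraries carry exact (Clopper-Pearson) 95% intervals for counting error alone, because there is 1 library per genotype and day. PCR duplicates stay in the counts, and the intervals make no allowance for them. A gene with 0 counts may have reached 3. The scripts were tested on simulated counts.

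The members and all gene lists were chosen with earlier results of these data known. Values in all libraries were given for 10 set genes, for members called between genotypes or in the step, for the 3 largest and smallest changes from day 0 to day 5, and for the 3 highest and lowest day 5 over day 3 ratios of each genotype; Cenpf, Cdca8 and Nusap1 were named after their values were seen. Alternatives were DESeq2 1.42.0, limma voom 3.58.1, relative log expression size factors, no filter on low counts, no mitochondrially encoded genes, and leaving out each library.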

Additional observations from a re-analysis of the deposited data

Results flagged for a closer look

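The summed level of the 54 mitosis genes in the Fkbp4 knockdown was 1.08 times as high at day 5 as at day 3 (95% interval for counting error 1.05 to 1.11). The same ratio was 0.674 in the control (0.652 to 0.696) and 0.421 in the Fkbp5 knockdown (0.408 to 0.434), so the single pair of libraries of the Fkbp4 knockdown moved the opposite way to the other two pairs. The difference between the sums was not tested; fitted gene by gene, the step differed after adjustment between no pair of genotypes in any of the 54 genes (edgeR).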

How the results depend on the processing

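The counts of members called lower from day 0 to day 3 and from day 0 to day 5, 53 each, were 53 or 54 under each alternative. From day 3 to day 5 the count of 5 was 11 with DESeq2, 8 with limma voom, 40 without a filter on low counts, and 1 to 16 on leaving out a library. Without that filter 1 member was called for the Fkbp5 knockdown and 2 for the Fkbp4 knockdown against the control, and 4 between both knockdowns, against 3.62, 2.88 and 9.97% of all genes. Leaving out a library gave 0 to 1, 0 to 0 and 0 to 8 in these comparisons. The 1 and the 8 came without the Fkbp5 knockdown library of day 3. Of 12818 genes tested without it, 60 were called higher and 151 lower for the Fkbp5 knockdown against the control. Between both knockdowns 1043 were called higher and 1063 lower. For the step from day 3 to day 5, DESeq2 called 2 members between both knockdowns and edgeR without the filter 32; leaving out a library gave, where the step could still be fitted, 0 to 1 against the control in the Fkbp5 knockdown, 0 to 0 in the Fkbp4 knockdown, and 0 to 25 between both knockdowns. The step could not be fitted for a genotype that had lost its day 3 or day 5 library. The cause of these differences was not tested. Of 434 alternative values for 31 results on named genes, 407 kept their direction and side of the threshold, 25 lost the call, 2 gained one and 0 changed direction. Most of these results were changes from day 0 to day 5, and each of those kept its call under all 14 alternatives. From day 3 to day 5 the call was lost under 4 of 14 for Bub1 and under 5 of 14 each for Ccnb1, Dlgap5 and Ube2c. That of Cdc20 between both knockdowns was lost under 6 of 14. The genotype-specific step was not among the 31 results. The additive model compares genotypes within days. No paired analysis by replicate number was possible because there is 1 library per genotype and day. With 1 library per cell of the design, genotype and culture cannot be told apart at a given day.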
